A study of Mus musculus with 4 samples.

Results

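Malat1, Neat1, Gas5, Snhg1, Snhg3, Snhg6, Snhg8 and Snhg12 are long noncoding RNAs that stay in the nucleus or carry small nucleolar RNAs (snoRNAs) in their introns. They were chosen by symbol from a table of 17519 mouse genes, and 6 of the 8 were found there. No row carried the symbol Snhg6 or Snhg8, so their levels were not analysed here. The RNA came from adult C57Bl.6 mouse spleen cells positive for MHC class II, separated with magnetic beads. The day 0 group was 1 library of freshly isolated cells without PSA, and the day 1 group was 3 libraries of cells cultured for 24 h with 50 µg/ml PSA. PSA is polysaccharide A, a capsular sugar polymer of the gut commensal Bacteroides fragilis, and the question was the response of antigen presenting cells. No library of cells cultured without PSA was analysed here, so PSA and a day in culture medium cannot be told apart. The labels leave unsaid if the day 1 libraries are separate mice, so p-values measure only the spread between libraries, which may be technical. The labels give the molecule as total RNA, while the design text speaks of purified mRNA.

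Malat1 is an abundant RNA of nuclear speckles, the nuclear bodies that store splicing factors. Neat1 is the scaffold of paraspeckles, which form around its long isoform. Neither relies on an ordinary poly(A) tail at the end of its long form: RNase P cuts the precursor, and the new end folds into a triple helix of U-rich and A-rich stretches. The short isoform of Neat1 is cleaved and polyadenylated in the ordinary way. Gas5 and the Snhg genes are transcribed as precursors whose introns release snoRNAs, which guide chemical modification of ribosomal RNA. Their spliced exons often hold no long reading frame, and many are degraded by nonsense-mediated decay when they are translated. Gas5, named for growth arrest, is known to accumulate when translation slows.

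The annotated transcripts show stretches that the long forms of Malat1 and Neat1 share, and a different end in the short Neat1 isoform. The sequences below are from GENCODE M21 (GRCm38) transcripts on the minus strand of chromosome 19, where Malat1 and Neat1 lie 22.035 kb apart. Capitals mark TTTCTTTT and AAAAAGCAAAA in the first pair and AATAAA, the usual poly(A) signal, in the short Neat1 isoform. They come from chr19:5795917-5796087, chr19:5824708-5824813 and chr19:5842307-5842366, in that order.
Malat1-201, around the cleavage site: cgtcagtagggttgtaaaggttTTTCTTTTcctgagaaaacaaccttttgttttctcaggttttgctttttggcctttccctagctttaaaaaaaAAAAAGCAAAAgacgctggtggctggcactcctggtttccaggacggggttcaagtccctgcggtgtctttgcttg
Neat1-201, last bases: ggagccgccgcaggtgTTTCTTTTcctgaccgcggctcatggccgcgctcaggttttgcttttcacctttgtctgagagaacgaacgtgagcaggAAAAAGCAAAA
Neat1-202, last bases: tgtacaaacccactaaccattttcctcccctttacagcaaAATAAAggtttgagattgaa
AAAAAGCAAAA was taken from the last 11 bases of the long Neat1 transcript of 20771 nt, so its place there is no finding. The Malat1 transcript of 6983 nt held it too and went on for 292 bases beyond it. Of 122312 transcripts of at least 400 nt, 0.117% hold AAAAAGCAAAA in their last 400 bases, read on the transcript strand only. AATAAA stood within the last 40 bases of Neat1-202 and of 29.1% of the same transcripts. For Malat1, AATAAA stood within the last 40 bases of 3 of 4 annotated transcripts. The deposited values are per gene, so the isoforms of Neat1 cannot be told apart in them.

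Some of the host genes had TATA and a pyrimidine run at their start, which were not used to choose them. The lines below give 40 bases before and 20 bases from the RefSeq start (GRCm38.p6), with capitals for TATA before the start and for a run of at least 3 pyrimidines (C or T) beginning at the start. Such a run begins the messages of many translation genes, where it is called a terminal oligopyrimidine tract. The windows are chr1:161035126-161035185 (plus strand) for the downstream start of Gas5, chr19:8723447-8723506 (plus) for Snhg1, chr4:132308638-132308697 (plus) for Snhg12, chr3:123508317-123508376 (minus) for Snhg8, chr4:132353667-132353726 (minus) for Snhg3 and chr19:5802653-5802712 (minus) for Malat1.
Gas5: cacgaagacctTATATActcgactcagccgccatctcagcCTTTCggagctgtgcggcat
Snhg1: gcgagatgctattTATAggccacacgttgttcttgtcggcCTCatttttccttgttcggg
Snhg12: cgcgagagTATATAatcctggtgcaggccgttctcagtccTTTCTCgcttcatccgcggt
Snhg8: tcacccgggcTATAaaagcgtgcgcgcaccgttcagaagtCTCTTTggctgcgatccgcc
Snhg3: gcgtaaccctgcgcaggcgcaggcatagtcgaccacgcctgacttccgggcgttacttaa
Malat1: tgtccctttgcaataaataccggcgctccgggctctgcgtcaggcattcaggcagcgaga
TATA, which reads the same on both strands, stood within 40 bases before the start of Gas5, Snhg1, Snhg12 and Snhg8, against 7.63% of 32851 RefSeq start windows. The pyrimidine run was 5 bases long in Gas5, 3 in Snhg1 and 6 in Snhg12 and Snhg8, and 10.7% of all windows had a run of at least 3, read on the gene's strand. Snhg3 and Malat1 had neither in these windows, nor had the upstream start of Gas5. Neat1 and Snhg6 are named only.

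The day 0 library was far shallower than the others. Values were deposited as FPKM, fragments scaled to transcript length and to mapped reads, and low values fell on steps worth 1 fragment. By these steps, day 1 replicates 1, 2 and 3 held 14.1, 15.9 and 21.9 times the fragments of day 0. Rows of small and ribosomal RNAs summed to 51.8% of all FPKM at day 0 and to 5.58%, 3.71% and 3.52% at day 1, and their part in the results below was not tested. MHC class II genes marked all libraries, with Cd74 at an FPKM of 2936 at day 0 and 8316, 8399 and 7453 at day 1. Changes were tested with limma on log2(FPKM + 1) over all 13903 genes that reached an FPKM of 1 in a library, with the lone day 0 library assumed to vary like the day 1 libraries. A gene was called at a Benjamini-Hochberg adjusted p under 0.05.

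Malat1 fell and Neat1 and Gas5 rose between day 0 and day 1, while Snhg12 did not pass the test. Of the 6 RNAs, limma called 3 higher (Neat1, Gas5 and Snhg3) and 2 lower (Malat1 and Snhg1). Among all genes tested, 35% rose and 19% fell, so calls of either kind were common in these libraries. With the median change of all genes set to 0 the balance turned, from 4869 rises and 2640 falls to 3034 rises and 3895 falls, and the 5 calls stood with the same signs. In the authors' deposited table, 1 of the 6 is called lower (Malat1) and none higher at a false discovery rate under 0.05, against 2.53% of all 17519 genes called lower and 0.28% called higher.

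**Figure D1:**
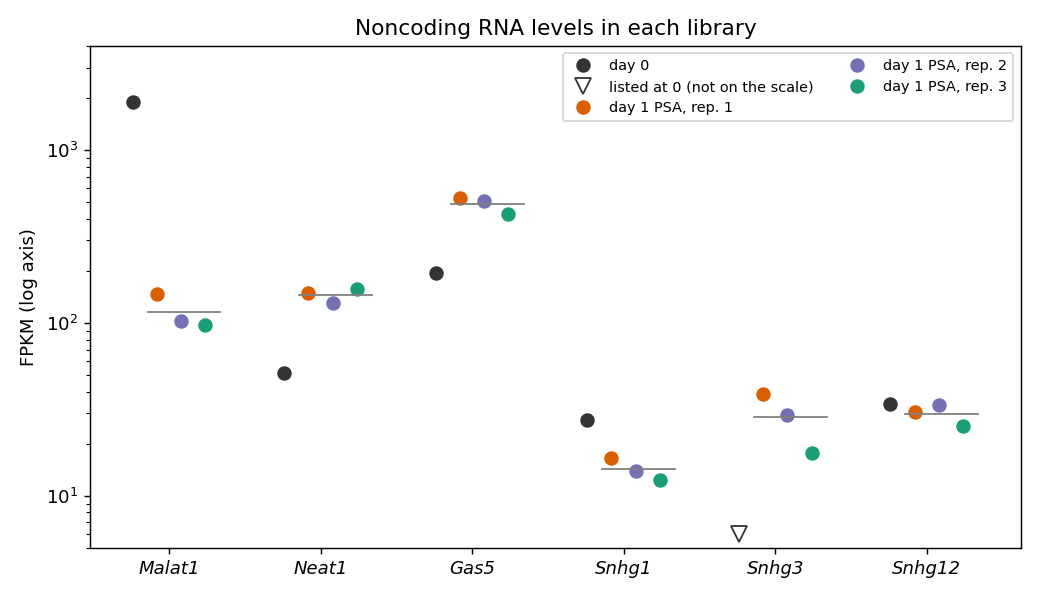
FPKM of 6 noncoding RNAs (log axis) in the day 0 library and the 3 day 1 PSA libraries; points are libraries, grey lines the day 1 mean, and the open triangle marks the value listed at 0. Malat1 stands at 1886 at day 0 and at 97.2 to 146 at day 1, Neat1 and Gas5 lie lower at day 0 than in every day 1 library, and Snhg12 lies just above its day 1 values.

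Malat1 (ENSMUSG00000092341, chromosome 19, 5795690 to 5802672, minus strand, GRCm38) stood at an FPKM of 1886 in the day 0 library, and day 1 replicates 1, 2 and 3 stood at 146, 103 and 97.2. Its day 1 mean was 115 ± 26.6 (SD, n = 3), which is 16.3-fold lower. The log2 change was -4.04 ± 0.30 (SE, limma adjusted p = 0.0050), and all 3 day 1 libraries lay below day 0, as for 31.4% of genes tested. The authors' deposited table gives a log2 fold change of -3.39 with a false discovery rate of 0.019. At day 0 Malat1 was more abundant by FPKM than 99.6% of protein-coding genes, and at day 1 more than 96.8%, 95.7% and 95.6% of them. The day 0 value stands for about 2799 fragments at a length of 6983 nt, with an exact 95% Poisson interval of 1817 to 1957 in FPKM, which like all such intervals here covers counting error only. With the median annotated transcript length the interval is 1656 to 2138, so day 0 depth does not limit the size of this fall.

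Neat1 (ENSMUSG00000092274, chromosome 19, 5824708 to 5845478, minus strand) moved the other way. Its FPKM was 51.4 at day 0 and 150, 129 and 157 at day 1, so that every day 1 library was above day 0, as for 53.7% of genes tested. The mean of 146 ± 14.5 (SD, n = 3) was 2.83-fold higher (log2 change 1.48 ± 0.16, SE; limma adjusted p = 0.0088). In the authors' deposited table the log2 fold change is 1.17 with a false discovery rate of 0.51, so Neat1 is not called there. The exact Poisson interval of the day 0 value was 45.0 to 58.6 at the full length, and 32.2 to 77.9 at the median transcript length, and all day 1 values lay above both.

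Taken within 1 library, the ratio of Malat1 to Neat1 needs no scaling between libraries. It does not remove a difference between libraries in the classes of RNA they held, whose part was not tested. Protein-coding rows made up 11.5% of all FPKM at day 0 and 80.2%, 82.2% and 83.4% at day 1. The ratio of Malat1 to Neat1 was 36.7 at day 0 and 0.975, 0.796 and 0.618 at day 1. Malat1 was thus the higher of the pair at day 0 and the lower in all 3 day 1 libraries. The day 0 ratio was 46.0 times the day 1 mean of 0.796 ± 0.179 (SD, n = 3). The ratio of Malat1 to Gas5 went from 9.74 to 0.278, 0.203 and 0.227. By FPKM, Neat1 was at 0.266 of Gas5 at day 0, inside the day 1 range of 0.255 to 0.367. The authors' deposited table gives unlike log2 fold changes for these RNAs, 1.17 for Neat1 and 0.46 for Gas5, and calls neither. With 1 library at day 0 no permutation test of a ratio can reach the threshold, so the ratios are descriptions.

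**Figure D2:**
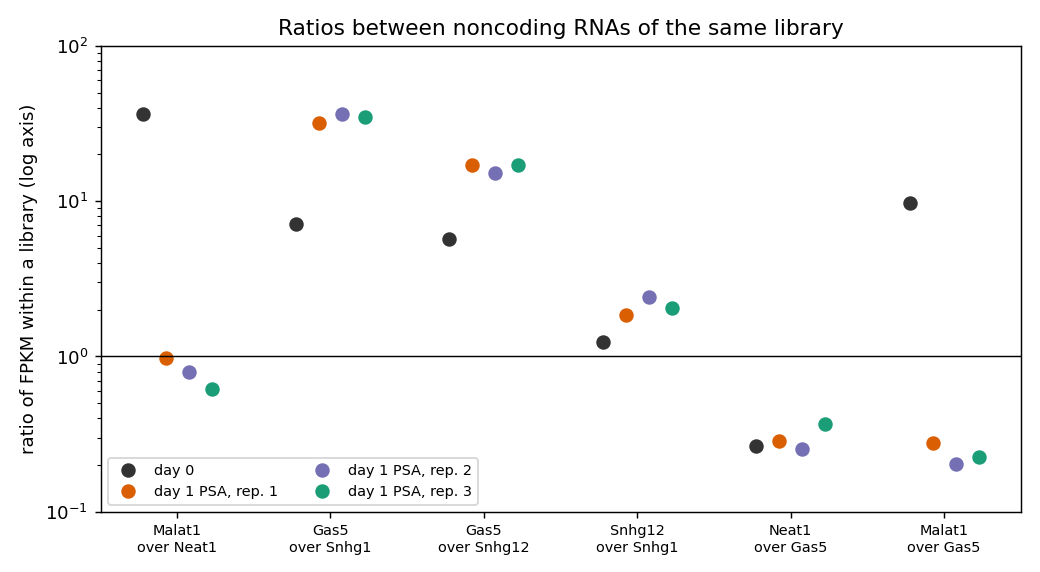
Ratio of FPKM between pairs of noncoding RNAs within each library (log axis, line at 1); points are the day 0 library and the 3 day 1 PSA libraries. Malat1 over Neat1 is 36.7 at day 0 and under 1 in all day 1 libraries, whereas Neat1 over Gas5 is 0.266 at day 0 and 0.255 to 0.367 at day 1.

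Gas5 (ENSMUSG00000053332, chromosome 1, 161034422 to 161038539, plus strand) was the most abundant of the 6 at day 1. Its FPKM was 194 at day 0 and 526, 508 and 429 at day 1, a mean of 487 ± 51.7 (SD, n = 3) and 2.52-fold higher than day 0. Every day 1 library was above day 0, as for 53.7% of genes tested. The log2 change was 1.32 ± 0.18 (SE, limma adjusted p = 0.012). It did not pass without day 1 replicate 2 (adjusted p = 0.080, log2 change 1.29), and the authors' deposited table gives 0.46 with a false discovery rate of 0.97. The exact Poisson interval of the day 0 value was 164 to 227 at the length of all exons and 126 to 284 at the median transcript length, below every day 1 value. Gas5 overlaps Zbtb37 on the other strand by 428 nt, and strand handling is not given in the sources used here, so reads of the overlap cannot be assigned to either gene. Zbtb37 itself was low, with 2.2 at day 0 and 1.64, 1.00 and 1.85 at day 1.

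Snhg1, Snhg12 and Snhg3 were less abundant than Gas5 in every library. Snhg1 (chromosome 19, 8723475 to 8726443, plus strand) hosts a run of box C/D snoRNAs in its introns. Its FPKM was 27.3 at day 0 and 16.6, 13.9 and 12.3 at day 1. The mean of 14.3 ± 2.15 (SD, n = 3) was 1.92-fold lower (log2 change -0.90 ± 0.21, SE; limma adjusted p = 0.039). This call ended without a filter on low values (adjusted p = 0.054), without day 1 replicate 2 (0.14) and without day 1 replicate 3 (0.081), by the same limma test. The authors' deposited table has a log2 fold change of -0.95 for Snhg1 and a false discovery rate of 0.48. At the median transcript length the day 0 value rests on about 3.5 fragments, with an exact Poisson interval of 5.63 to 79.8 that holds all day 1 values, so at that length a fall was not detectable at this depth. The symbol Snhg1 has another gene ID in GENCODE M21 (GRCm38) than in the table, and its position was taken by symbol.

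Snhg12 (ENSMUSG00000086290, chromosome 4, 132308623 to 132311024, plus strand) had a day 0 level of 33.9 and day 1 levels of 30.6, 33.4 and 25.2 in FPKM. All 3 day 1 values were below day 0, by little in replicate 2. The log2 change of -0.19 ± 0.21 (SE) had a limma adjusted p of 0.47, and the call was absent under all alternatives run. The day 0 interval of 19.7 to 54.2 at the length of all exons allows day 1 over day 0 ratios of 0.548 to 1.51. At the median transcript length, with about 6.59 fragments, the interval is 13.6 to 69.8 and the ratios are 0.426 to 2.18. A change within these ranges was not detectable at this depth.

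Snhg3 (ENSMUSG00000085241, chromosome 4, 132348014 to 132353686, minus strand), which hosts Snora73a and Snora73b, was listed at 0 at day 0, and its day 1 FPKM was 38.7, 29.2 and 17.6. These libraries differed by 2.2 times between the highest and the lowest, the widest spread of the 6. Limma called a rise (adjusted p = 0.0084; 0.056 without day 1 replicate 2), as for 53.7% of the tested genes listed at 0 at day 0. The day 1 mean predicts about 5.97 fragments at day 0 at the length of all exons and 2.64 at the median transcript length. A floor of 3 fragments is an FPKM of 14.3 or 32.3 at these lengths. The ribosomal protein gene Rps27 was also listed at 0 at day 0, so such a 0 can be a failed estimate and no fold is given. In the authors' deposited table Snhg3 has a log2 fold change of 1.06 and a false discovery rate of 0.57. Snhg3 shares 5592 nt of its span with Rcc1 on the same strand and 1611 nt with Gm17300 on the other, so its reads are uncertain.

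The order of the levels changed between the days. At day 0 it was Malat1, Gas5, Neat1, Snhg12 and Snhg1, with Snhg3 listed at 0. At day 1 it was Gas5, Neat1, Malat1, Snhg12, Snhg3 and Snhg1 by the means. The day 1 ranges of Neat1 and Malat1 overlapped, although Malat1 was the lower of the pair in each library. The ranges of Snhg12 and Snhg3 overlapped too, with Snhg3 the higher in replicate 1 and the lower in replicates 2 and 3. Malat1 made up 86.0% of the summed FPKM of the 6 at day 0 and 16.1%, 12.6% and 13.2% at day 1, while Gas5 made up 8.83% and then 57.9%, 62.2% and 58.0%. Gas5 over Snhg1 was 7.09 at day 0 and 31.7, 36.6 and 34.8 at day 1, and Gas5 over Snhg12 was 5.72 and then 17.2, 15.2 and 17.0. Both ratios to Gas5 were lower at day 0 than in every day 1 library. At the median transcript length the day 0 values of Snhg1 and Snhg12 rest on about 3.5 and 6.59 fragments. A change of proportion between these host RNAs is thus uncertain and was not tested.

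The snoRNA rows inside these genes were high at day 0 or listed at 0 there, as were snoRNA rows elsewhere. GENCODE M21 (GRCm38) places 27 snoRNA genes inside the 8 host or nuclear RNA genes on the same strand, of which 21 had a row in the table. Malat1 and Neat1 hold none. Of the 21, 15 were higher at day 0 than in every day 1 library and the other 6 were listed at 0 at day 0. Limma called 5 of the 20 tested lower and none higher, against 21% lower and 7.39% higher among the 176 snoRNA rows tested. Among snoRNA rows outside these genes, 57 of 163 were higher at day 0 than in every day 1 library and 104 were listed at 0 at day 0. For rows above 0 at day 0 the median log2 change was -5.11 inside these genes and -5.42 elsewhere, and limma called 32 of 156 tested elsewhere lower. At day 0, 1 fragment is worth more FPKM than at day 1, so picking rows above 0 there by itself favours falls. These medians, and the counts of rows higher at day 0, are therefore descriptions and do not measure a change. Without day 1 replicate 1, 2 or 3 the falls inside these genes numbered 9, 1 and 3. The authors' deposited table calls 1 of the 21 lower, SNORD24.

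Of these snoRNAs, SNORD29, Snora16a and Snora73a were called lower, but their sequences are not shown. Sequences of 6 others are given: SNORD75, SNORD24, Snord99, SNORD26 and Snord47 for the highest day 0 levels and Snora61 for its call. They are from GENCODE M21 (GRCm38) and lie on the plus strand at chr1:161035850-161035911 (SNORD75), chr1:161036057-161036139 (SNORD24), chr1:161038082-161038158 (Snord47), chr19:8724251-8724325 (SNORD26), chr4:132310691-132310764 (Snord99) and chr4:132310240-132310369 (Snora61). Capitals mark the box C core TGATGA and the box D CTGA in the box C/D class, and ACA near the end of Snora61, which is of the H/ACA class. SNORD75 and SNORD26 have no exact TGATGA in the bases searched.
SNORD75: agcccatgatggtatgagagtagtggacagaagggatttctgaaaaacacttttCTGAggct
SNORD24: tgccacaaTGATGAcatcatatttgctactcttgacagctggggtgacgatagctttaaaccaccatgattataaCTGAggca
Snord47: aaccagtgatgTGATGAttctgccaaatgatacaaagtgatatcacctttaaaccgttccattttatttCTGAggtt
SNORD26: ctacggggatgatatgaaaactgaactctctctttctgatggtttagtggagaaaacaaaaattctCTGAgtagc
Snord99: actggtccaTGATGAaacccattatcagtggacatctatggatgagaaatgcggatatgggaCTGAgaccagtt
Snora61: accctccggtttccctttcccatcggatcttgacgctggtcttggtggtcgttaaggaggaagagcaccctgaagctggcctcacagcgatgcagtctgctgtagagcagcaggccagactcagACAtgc
TGATGA in the first 20 bases together with CTGA in the last 15, read on the gene's own strand, was found in 20.2% of 1507 annotated snoRNA genes, and ACA in the last 8 bases in 46.8%.

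Inside Gas5, SNORD75 stood at an FPKM of 2320 in the day 0 library and went to 234, 37.2 and 26.2 at day 1. SNORD24 was at 1712 and then at 23.9, 0 and 0, and Snord47 at 955 and then at 57.5, 1.33 and 0. These snoRNA rows were lower in all 3 day 1 libraries, whereas the Gas5 row that surrounds them was higher in all 3. None of the 3 passed limma (adjusted p of 0.062, 0.051 and 0.10), and their day 1 values spread widely. By the step found in genes of at least 1000 nt, the day 0 levels would stand for about 30.6, 30.2 and 15.6 fragments. For genes this short such numbers are uncertain, as Snora73b, above 0 at day 0, comes to 0.625 of a fragment. SNORD74, SNORD77, SNORD78 and SNORD79 were listed at 0 at day 0. SNORD78 was at 115, 69.4 and 1.08 at day 1.

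Inside Snhg1, SNORD26 fell from 1012 to 152, 79.6 and 48.7 (log2 change -3.57 ± 0.74, SE, limma adjusted p = 0.030). SNORD29 fell from 247 to 3.58, 3.91 and 0 (limma adjusted p = 0.023), although its day 0 value rests on about 3.41 fragments. Snord22 was at 502 and then at 154, 36.5 and 51.4 and did not pass. Within a library, SNORD26 over Snhg1 was 37.1 at day 0 and 9.21, 5.73 and 3.96 at day 1. Inside Snhg12, whose own level did not pass the test, Snora61 fell from 337 to 34.6, 18.8 and 33.1 (log2 change -3.55 ± 0.44, SE, limma adjusted p = 0.011). Snora16a also fell, while Snord99, at 1600 and then at 270, 63.1 and 56.5, did not pass. Snora61 over Snhg12 was 9.94 at day 0 and 1.13, 0.564 and 1.31 at day 1. Snora73a, inside Snhg3, fell from 52.3, about 2.28 fragments, to 4.15, 0 and 0. These are rows of short genes, whose FPKM is sensitive to how fragment length is handled, so their fragment numbers are uncertain. Reads of a host intron cannot be told apart from the snoRNA.

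**Figure D3:**
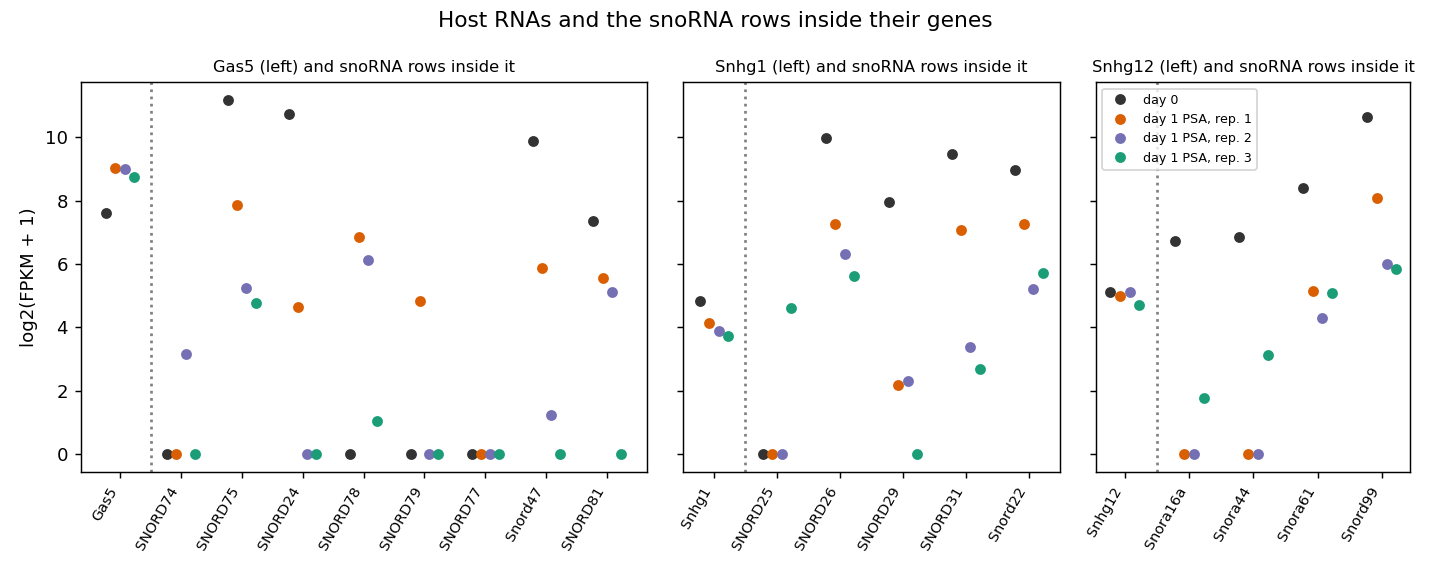
log2(FPKM + 1) of Gas5, Snhg1 and Snhg12 (left of the dotted line in each panel) and of the snoRNA rows inside each gene; points are the day 0 library and the 3 day 1 PSA libraries. The snoRNA rows above 0 at day 0 are highest there, where 1 fragment is worth more FPKM. Gas5 is lowest at day 0, and several day 1 values are listed at 0.

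Other noncoding RNAs of the same kinds were examined for comparison. Of 10 other snoRNA hosts tested, 4 rose and 1 fell, with a median log2 change of 0.45 against 0.59 for all genes tested. Among genes above 0 at day 0 these medians were 0.30 and 0.018. Of the rises, Snhg9 (38.6, 38.4 and 26.3 at day 1), Snhg5 (20.3, 15.2 and 20.8) and Snhg7 (8.14, 6.25 and 4.73) were listed at 0 at day 0. Snhg11 fell from 21.7 to 0.274, 0.366 and 0.296, and the authors' deposited table also has it lower. Of 12 other nuclear and long noncoding RNAs tested, 3 rose and 5 fell, with a median of -0.75. The 4 largest changes were falls of Rpph1, the RNA of RNase P, from 5681 to 9.61, 2.12 and 0.771, of Rmrp, the RNA of RNase MRP, from 495 to 0 in all 3, of Rn7sk, which holds the elongation factor P-TEFb in check, from 18302 to 116, 44.8 and 40.6, and of Tsix. Rpph1, Rmrp and Rn7sk are short RNAs made by RNA polymerase III, which carry no poly(A) tail. Tsix, the antisense partner of Xist, went from 26.2 to 0 in all 3. Xist, named after its values were seen, was at 31.8 and then at 103, 82.9 and 83.2, and reads of this pair cannot be told apart without strand.

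**Figure D4:**
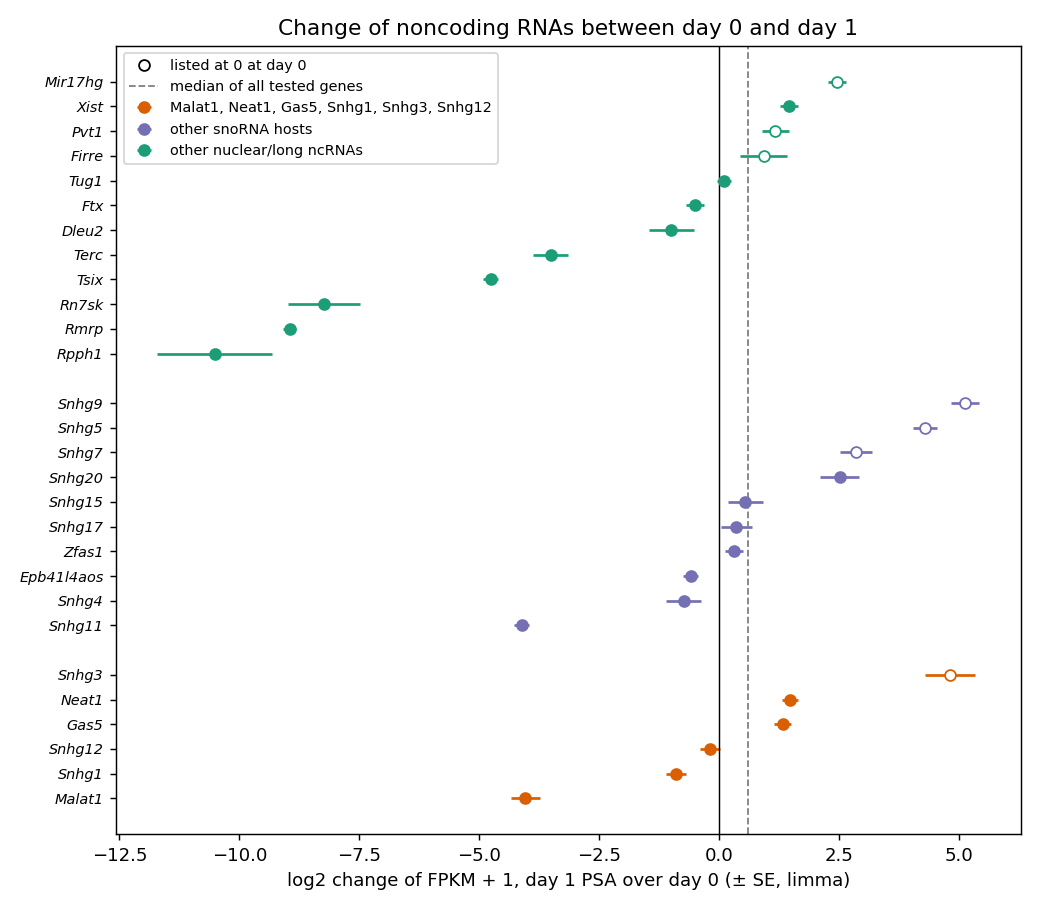
log2 change of FPKM + 1 between day 0 and day 1 (± SE, limma) for the 6 noncoding RNAs, 10 other snoRNA hosts and 12 other nuclear and long noncoding RNAs; open points were listed at 0 at day 0, and the dashed line is the median of all tested genes at 0.59. Malat1 at -4.04 lies between the short RNAs Rpph1, Rmrp and Rn7sk and the spliced host RNAs above 0 at day 0 other than Snhg11, which stands at -4.11.

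Genes for proteins that work with these RNAs were called in both directions, as were genes at large, of which 35% rose and 19% fell with a median log2 change of 0.59. Of 18 paraspeckle proteins, 5 rose and 4 fell, with a median log2 change of -0.11, and with the median change of all genes set to 0 the balance turned to 3 rises and 9 falls. Sfpq, a core paraspeckle protein, fell from 274 to 107, 101 and 124, and Hnrnpr, an RNA-binding protein, from 66.1 to 18.4, 18.4 and 20.2. Tardbp, which encodes TDP-43, rose from 23.7 to 80.4, 90.6 and 73.0, and Cpsf7, a cleavage factor subunit, from 7.74 to 20.7, 20.4 and 22.3. Nono, the partner of Sfpq, was named after its values were seen and did not pass, at 92.9 and then at 87.6, 92.3 and 89.1. Of 22 nuclear speckle and splicing proteins, 10 rose and 3 fell, with a median of 0.63, close to that of all genes. The counts were 5 rises and 3 falls with the median set to 0, and 1 rise and no fall by limma without day 1 replicate 2. The kinases Clk1 and Clk4, which phosphorylate SR proteins, rose from 40.5 to 206, 201 and 154 and from 11.7 to 43.2, 40.8 and 53.7. Srsf3 rose from 32.0 to 128, 118 and 98.7, and Srsf11 fell from 162 to 48.2, 48.4 and 65.3.

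Of 19 snoRNP core and assembly proteins, 2 rose and 6 fell, with a median log2 change of -0.30. The falls numbered 11 with the median set to 0, 3 with scaling over protein-coding genes and 2 without day 1 replicate 2. Nop58, a core protein of box C/D snoRNPs, fell from 163 to 22.9, 19.04 and 21.2, and the authors' deposited table also calls it lower. Tcof1, a nucleolar protein of ribosomal RNA synthesis, fell from 154 to 32.8, 33.3 and 37.0. The assembly ATPases Ruvbl1 and Ruvbl2 rose, from 5.64 to 19.99, 20.7 and 17.1 and from 7.74 to 30.8, 33.7 and 28.7. Of 19 nonsense-mediated decay and turnover factors, 6 rose and 6 fell, with a median log2 change of 0.35, and 2 rose and 8 fell with the median set to 0. Upf3b, which links the decay machinery to exon junctions, fell from 173 to 18.8, 16.6 and 17.7, Ncbp2, the small cap-binding subunit, from 52.4 to 13.2, 11.3 and 15.6, and Xrn1, a 5′ exonuclease, from 6.41 to 0.462, 0.372 and 0.998. Dcp1a, a decapping cofactor, rose from 0.820 to 3.73, 4.50 and 5.88. Of 30 protein-coding snoRNA hosts and translation genes, 11 rose and 6 fell, with a median of 0.40, and 5 rose and 8 fell with the median set to 0. Rps12 fell from 957 to 264, 240 and 202, Rplp2 from 9183 to 2425, 1748 and 1510, and Cct4 rose from 19.99 to 84.4, 85.8 and 103, while Rpl17, which rose, was listed at 0 at day 0 and reached 193, 443 and 302.

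By the authors' own calls none of the proteins in these lists was higher, and Nop58 and Rps12 were lower in the authors' deposited table. These counts leaned on day 1 replicate 2: over all lists beside the 6 RNAs, cell type markers included, 59 genes rose and 43 fell, but without that library 17 rose and 20 fell.

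Genes nearest in pattern to Malat1 and Gas5 were found by the root mean square distance of centred log2(FPKM + 1) over the 4 libraries, among genes with a mean FPKM of at least 10. For Malat1 they were AC158667.1, AC142212.1 and AC165159.1, all annotated as miscellaneous RNA, at distances of 0.0465, 0.0976 and 0.134. AC142212.1 went from 824 to 73.2, 52.8 and 49.1. For Gas5 they were Mrpl28, Iscu and Abtb1 (0.0069 to 0.0248). Within a distance of 0.2 lay 8 genes for Malat1, 633 for Neat1 and 723 for Gas5, a distance that leaves fewer neighbours to any large change. Miscellaneous RNA rows, the class of all 3 genes nearest to Malat1, fell in 61 of 100 tested with a median log2 change of -4.10, beside -4.04 for Malat1. Among all genes tested 19% fell. Malat1 itself is annotated as long intergenic noncoding RNA, a class with 160 falls among 480 tested and a median of 0.40. The medians of snoRNA, snRNA and miRNA rows were 0.93, 1.16 and 0.95. A link between Malat1 and any class was not tested.

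Cell type markers moved with the comparison, and their part in the results was not tested. Of 8 B cell markers, 6 rose and 1 fell, with a summed FPKM of 4032 at day 0 and 7600 to 8294 at day 1. The fall was that of Pax5, named after its values were seen, from 2118 to 161, 158 and 165. Pax5 held 2118 of the day 0 sum and is lower in the authors' deposited table too. Macrophage and monocyte markers numbered 10, with 2 rises and 6 falls (146 against 119 to 128), and Cd14 was listed at 0 at day 0. The complement genes C1qa, C1qb and C1qc and Vcam1, also named after their values were seen, were among the falls and are lower in the authors' deposited table too. C1qa fell from 23.2 to 0.982, 0.577 and 0.209, while Lyz2 rose from 29.1 to 69.3, 80.9 and 77.3. For the 7 dendritic cell markers tested there were 2 rises and 4 falls (270 against 128 to 140). Siglech, a marker of plasmacytoid dendritic cells named after its values were seen, carried the fall of that sum, from 222 to 10.8, 16.2 and 13.6, while Ccr7 rose from 26.2 to 100.1, 108 and 107. Among 7 tested markers of T and NK cells, 2 rose and 1 fell (85.5 against 125 to 153). The 3 of 5 neutrophil markers that rose were all listed at 0 at day 0 (13.4 against 35.7 to 55.03). The erythroid and platelet list had 1 rise among 3 tested (703 against 1037 to 2599). In bulk RNA, fewer cells of a type and less RNA per cell cannot be told apart.

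**Figure D5:**
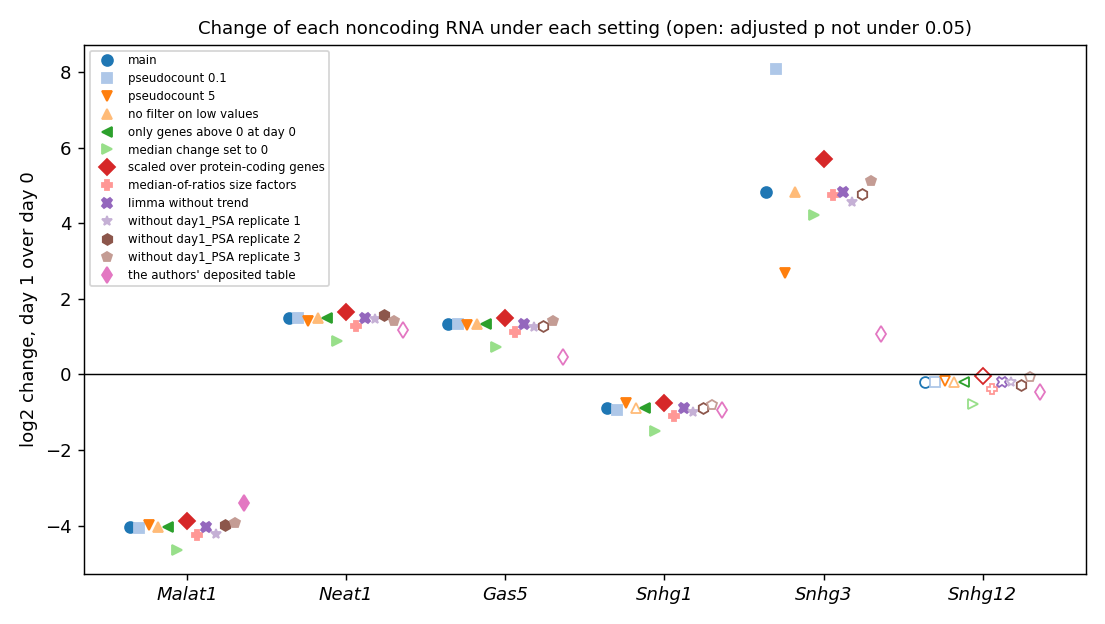
log2 change of each noncoding RNA under the main settings, 11 alternatives and in the authors' deposited table; open points have an adjusted p (or false discovery rate) not under 0.05. Malat1 stays between -4.64 and -3.39, Neat1 and Gas5 stay above 0, and Snhg3, listed at 0 at day 0, ranges from 1.06 to 8.09.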

How the data were processed

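RNA of 4 mouse spleen libraries was sequenced on an Illumina HiSeq. Per the labels' protocols, the authors removed the 3′ adaptor, left out reads under 10 nt and estimated FPKM with Cufflinks. Build GRCm38.p6 and the tools TopHat 1.4.1, Cufflinks 2.2.1, Cuffdiff and cutadapt are named in the submitters' processing notes. Annotation release, strand handling and the treatment of multiply mapped reads: not given in the sources used here. The deposited log2 fold changes, mean log2 abundances, p-values and false discovery rates carry no test name in the file headers, so the authors' deposited table is quoted as it stands.

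The members, lists and tests were chosen with earlier results of these data known. Changes were tested with limma 3.58.1 (R 4.3.3), with a trend in the variance, on log2(FPKM + 1) of 13903 genes that reached an FPKM of 1 in any library; Benjamini-Hochberg adjustment ran over all of them (2 residual and 1.27 prior degrees of freedom). A log2 change is on that scale and understates low genes, and a fold is a ratio of FPKM means. The script was tested on simulated data, with 50 genes changed at each of 4 sizes. It recovered 9 at a log2 change of -2, 20 at 2, 40 at -4 and 33 at 4. There were 13 false calls among the unchanged of the 13903 genes. Many changes of these sizes were thus missed, so a gene that did not pass may still have changed. All 4 simulated libraries were drawn from the day 1 levels and spread, so the shallow day 0 library and its RNA classes were not simulated. The 13 false calls thus do not measure how many arose in the real comparison. Fragments were estimated from the step of low FPKM values in 1182 protein-coding genes with 1 transcript of at least 1000 nt (60.8% to 68.3% of low values within 0.1 of a whole number, 20% by chance), and gene positions come from GENCODE M21, which holds 16232 of the 17519 IDs. Of 8 RNAs, 6 were in the table and all 6 passed the filter on low values. Genes named were the members, up to 4 called members of each list with the largest change, snoRNA rows inside the members and the 3 genes nearest to Malat1 and to Gas5; those nearest to Neat1 are not reported here. Other pseudocounts, filters, scalings, a fit without trend and leaving out each day 1 library were tried.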

Additional observations from a re-analysis of the deposited data

How the results depend on the processing

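No call of the 6 RNAs changed sign under the 11 alternatives or in the authors' deposited table, which calls 0 higher and 1 lower. Malat1 and Neat1 passed under all 11 limma alternatives, Gas5 under 10, Snhg3 under 9 of the 10 that hold it, Snhg1 under 8 and Snhg12 under none. Their log2 changes ranged from -4.64 to -3.89 for Malat1, 0.88 to 1.65 for Neat1, 0.73 to 1.49 for Gas5, -1.50 to -0.75 for Snhg1 and 2.69 to 8.09 for Snhg3. Without a filter on low values 1 of the 6 fell. Over all genes, 2834 rose when genes at 0 at day 0 were left out and 3034 when the median was set to 0, where 34 genes of the other lists rose against 59. That median was 0.59, but 0.018 when only genes above 0 at day 0 were used, 0.36 without a filter, 0.78 with a pseudocount of 0.1, 0.27 with one of 5, 0.46 with size factors and 0.80 with scaling over protein-coding genes. Of the snoRNA rows, 2 fell with a pseudocount of 0.1 and 8 with 5, against 5. Leaving out 1 day 1 library gave 2317 to 3875 rises and 1317 to 2012 falls over all genes, 1 to 3 rises and 1 to 2 falls among the 6, 17 to 43 rises and 20 to 30 falls in the other lists, and 0 to 1 rises and 1 to 9 falls of snoRNA rows. The lowest counts over all genes came without replicate 2, and the causes were not tested. No paired analysis was possible because day 0 has 1 library. Depth at day 0 limits Snhg1, Snhg3, Snhg12 and the snoRNA rows, and leaving out the lone day 0 library leaves no comparison.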
